A study of Homo sapiens with 24 samples.

Results

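The genes described here encode the collagen chains, the laminin chains and the enzymes and glycoproteins that fold, cross-link and accompany them. Members were chosen by gene symbol alone: COL followed by digits, A and digits; LAM followed by A, B or C and a digit; and LOX, LOXL1 to LOXL4, PLOD1 to PLOD3, P4HA1 to P4HA3, SERPINH1, FN1, TNC, SPARC and THBS1. They held 114 of the 47309 probes on the array, for 69 genes. Of these probes, 59, for 42 genes, were detected (p under 0.05 against the negative controls) on both arrays of some group and so were among the 22803 probes tested. MDA-MB-231, a human breast cancer cell line, was transfected at 50 nM with a synthetic RNA and harvested at 48 hours, and RNA was measured on Illumina HT12v4 bead arrays. The 24 arrays formed 12 groups of 2. There were 6 mimics, synthetic RNAs that act as a mature microRNA (miR-655-3p, miR-544a, miR-410, miR-369-3p, miR-135a and miR-127-5p), 5 inhibitors, synthetic RNAs that bind a microRNA (of the same microRNAs without miR-127-5p), and a non-targeting (NT) mimic, which was the only control. All groups shared the cell line, the dose and the time. No group had an untransfected, an inhibitor-type or a second mimic control, so every comparison with NT shared the same 2 NT arrays. Whether paired arrays stem from separate cultures is not in the labels, and the p-values therefore cover the spread between these arrays, which may be technical.

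Collagens are trimers of alpha chains that are hydroxylated and folded in the endoplasmic reticulum, secreted, trimmed and then cross-linked by lysyl oxidases. Fibrillar collagens give tissues tensile strength, whereas collagen IV and the laminins, which are trimers of an alpha, a beta and a gamma chain, form the sheets of the basement membrane that an invading tumor cell meets first. A microRNA lowers its target transcripts by pairing, mainly through bases 2 to 8 of its mature sequence (the seed), with their 3′ untranslated regions.

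The mature sequences of the 4 microRNAs whose arm the labels name are shown because they define the transfected mimics and because a pair of them share much of their 5′ part. They are from RefSeq (GRCh38.p14) and lie on the plus strand of chromosome 14, at chr14:100883001-100883022 (hsa-miR-127-5p), chr14:101048712-101048733 (hsa-miR-544a), chr14:101049610-101049631 (hsa-miR-655-3p) and chr14:101065641-101065661 (hsa-miR-369-3p). The capitals mark the seed.
hsa-miR-127-5p: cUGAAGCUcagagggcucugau
hsa-miR-544a: aUUCUGCAuuuuuagcaaguuc
hsa-miR-655-3p: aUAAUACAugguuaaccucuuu
hsa-miR-369-3p: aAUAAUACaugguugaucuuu
No seed was shared exactly. miR-655-3p and miR-369-3p shared a run of 13 bases, AUAAUACAUGGUU, that starts at base 2 of miR-369-3p and at base 1 of miR-655-3p, so that their seeds are the same letters shifted by 1 base. The arm of miR-135a and miR-410 is not given in the labels, and no sequence is shown for them.

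The median deposited signal per array, before background correction and normalization, was 101.7 to 123.1. Per array, 19754 to 21286 probes were detected, of which 47 to 57 were member probes. The arrays of a group correlated at 0.987 or more except those of the miR-544a mimic (0.98), which differed by 0.31 on the log2 scale on average over all tested probes and by 0.39 over member probes. In the NT group the member probes differed by 0.15. VIM, CD44, AXL and CAV1, which mark this mesenchymal-like line, were detected on all 24 arrays, and ESR1, FOXA1 and CDH1 on none. PTPRC, CD3E and VWF were detected on no array, PECAM1 on 16 at signals of up to 43.0, and ALB on 24 at 62.9 to 137. GATA3, a luminal marker, was detected on all 24 arrays at signals of 36.8 to 78.7, and was called lower with the mimics of miR-544a (-0.65) and miR-135a (-0.58). CAV1 was called lower with the miR-544a mimic (-0.68). PECAM1, detected on both NT arrays, was undetected and called lower with the mimics of miR-655-3p, miR-410, miR-369-3p and miR-127-5p. The part of these markers in the results was not tested.

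The 27 member genes with no tested probe were named only. Of these, 18 were detected on no array: SPARC, LOXL2, P4HA3, LAMA4, LAMC3, COL2A1, COL4A3, COL4A4, COL4A6, COL5A3, COL9A1, COL9A3, COL10A1, COL14A1, COL19A1, COL21A1, COL26A1 and COL28A1. The other 9 (COL3A1, COL5A2, COL6A6, COL11A1, COL15A1, COL20A1, COL22A1, COL23A1 and COL25A1) were detected on at most 5 arrays. Fibronectin (FN1), which links cells to collagen through integrins, was tested through 1 probe. It was detected on 12 arrays at signals of 20.9 to 34.3 and was called in no comparison with NT.

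The mimics differed in how many member probes they moved and in which direction. A probe was called at an adjusted p under 0.05 (limma, over all tested probes) and a fold of at least 1.4. The miR-655-3p mimic lowered 20 of the 59 member probes, against 5.9% of all tested probes, and raised 5, against 5.51%. The median log2 fold change of its member probes was -0.48, against 0.01 for all probes. On the brightest probe of each of the 42 genes the median was -0.19. Against the inhibitor arrays the median of the member probes was -0.14. The miR-369-3p mimic lowered 9 and raised 0, against backgrounds of 2.76% and 2.31% of all probes, and the miR-410 mimic lowered 11 and raised 1, against 4.1% and 3.46%. With 1 array of the mimic or of NT left out, the miR-369-3p mimic lowered 3 to 5 and the miR-410 mimic 6 to 8, and against the inhibitor arrays the miR-369-3p mimic lowered 2 and raised 5. The miR-135a mimic lowered 9, against 8.27%, and raised 3, against 8.14%. The miR-127-5p mimic lowered 3, against 8.02%, and raised 8, against 7.75%. The miR-544a mimic lowered 8, against 9.8%, and raised 10, against 11.2%. The median log2 fold change of the member probes was -0.14, -0.15, -0.06, 0.05 and 0.04 with the mimics of miR-369-3p, miR-410, miR-135a, miR-127-5p and miR-544a, against values within 0.02 of 0 for all probes. Against NT the miR-655-3p mimic thus had the highest share of member probes lowered, while with the miR-544a mimic neither share stood far from that of all probes. Against the inhibitor arrays the miR-655-3p mimic lowered 9 and raised 8, against 5.91% and 6.01% of all probes. There the miR-544a mimic lowered 4 and raised 21, against 10.2% and 10.3%. With 1 array left out, the number raised by the miR-655-3p mimic was 2 to 3, the number lowered by the miR-135a mimic 5 to 8, and the miR-127-5p mimic lowered 1 to 2 and raised 5 to 8.

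**Figure D1:**
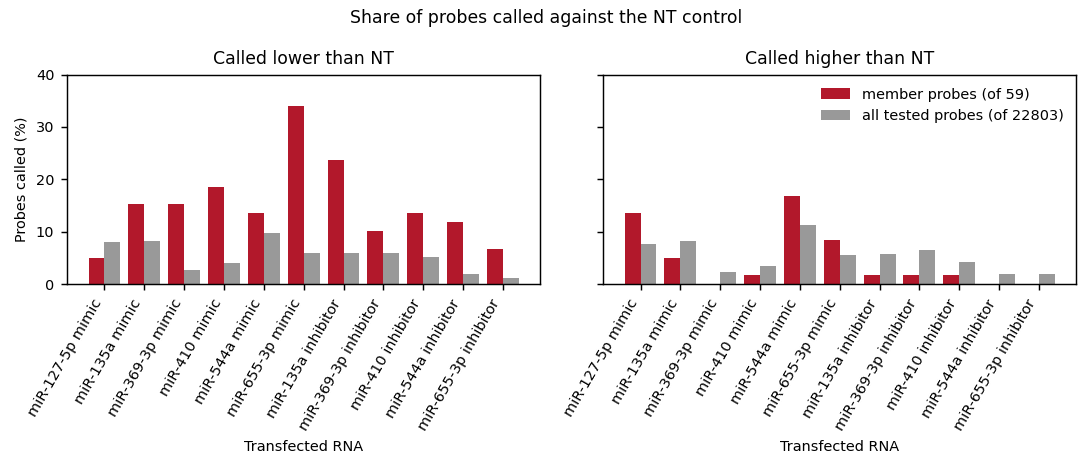
Share of member probes (red, of 59) and of all tested probes (grey, of 22803) called lower (left) or higher (right) than NT, in percent, for each mimic and inhibitor. The bar of lowered member probes is highest for the miR-655-3p mimic (33.9% against 5.9% of all probes), and no member probe was raised by the miR-369-3p mimic or by the inhibitors of miR-544a and miR-655-3p.

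Counted by gene, on the brightest tested probe, 13 of the 42 genes were called with no mimic, 13 were called only lower, 9 only higher and 7 (COL4A1, COL6A1, COL12A1, LOX, LOXL1, PLOD2 and SERPINH1) in opposite directions with different mimics. Over all 12529 genes with a tested probe, 50% were called with no mimic, 22.7% only lower, 21.5% only higher and 5.78% in opposite directions. The genes never called were FN1, COL1A2, COL4A2, COL6A2, COL6A5, COL8A2, COL9A2, COL11A2, COL24A1, LAMA2, LAMB1, LAMB4 and PLOD3. The comparisons share the NT arrays, so a call repeated across mimics is not independent.

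**Figure D2:**
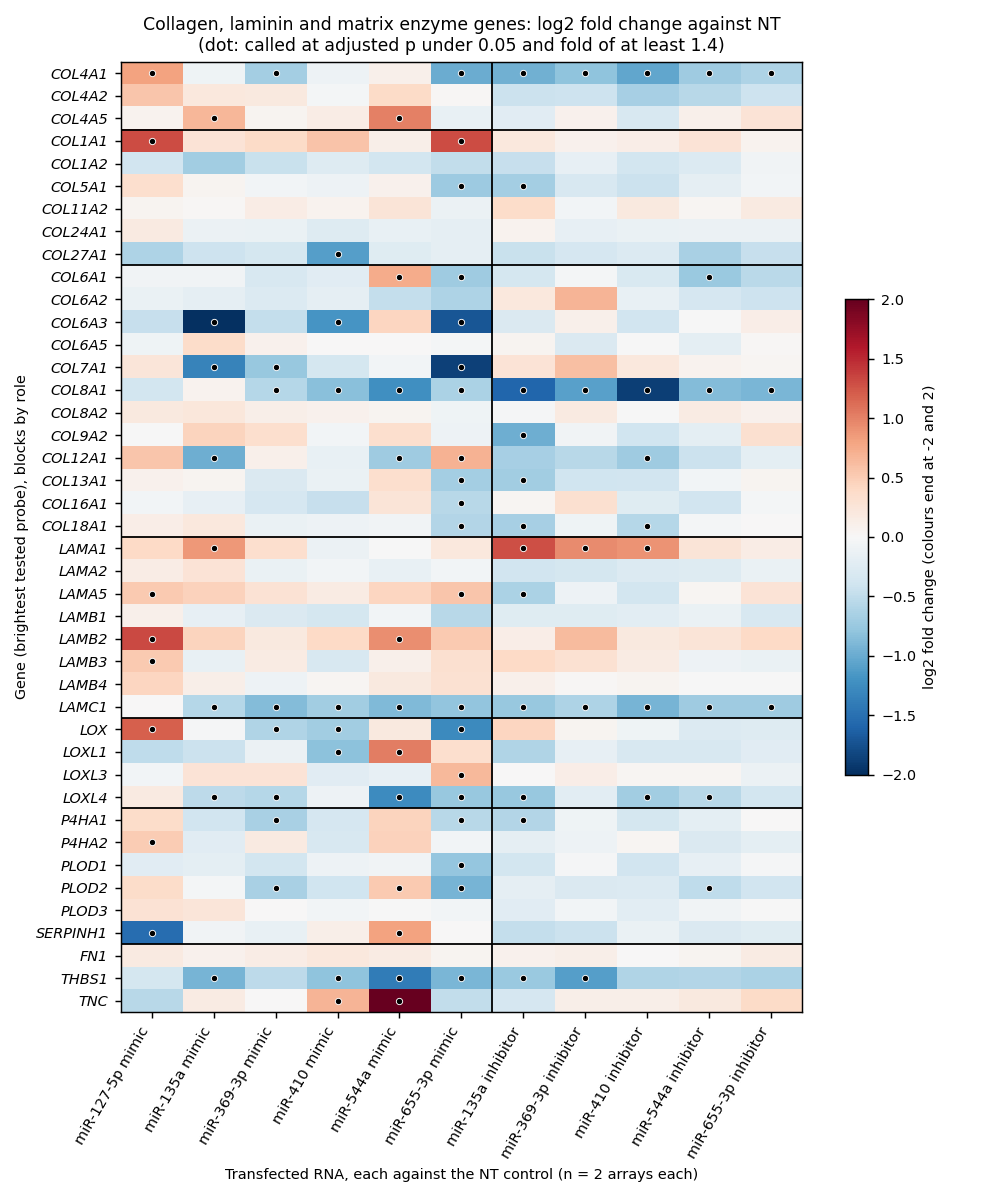
Log2 fold change of the 42 member genes (rows, brightest probe, in blocks by role: collagen IV, fibrillar collagens, other collagens, laminins, lysyl oxidases, hydroxylases and chaperone, glycoproteins) against NT for 6 mimics and 5 inhibitors (columns), with dots on called values. LAMC1 is lower in every column except that of the miR-127-5p mimic (0.01), COL6A3 and COL7A1 are lowest with the mimics of miR-135a and miR-655-3p, and TNC reaches 2.60 with the miR-544a mimic, beyond the end of the colours.

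Collagen IV, the network collagen of basement membranes, was represented by COL4A1, COL4A2 and COL4A5. COL4A1 moved in opposite directions. Its signal was 2566 and 2849 with the miR-127-5p mimic, 979 and 937 with the miR-369-3p mimic and 749 and 804 with the miR-655-3p mimic, against 1477 and 1609 in NT. None of these groups overlapped NT. On the log2 scale the fold changes were 0.81 ± 0.11 (SE, limma adjusted p = 6e-05), -0.69 ± 0.11 (adjusted p = 0.0012) and -0.99 ± 0.11 (adjusted p = 1.1e-05). The 10 inhibitor arrays, however, also lay under NT, at 714 to 1092 with a median of 888, and against them COL4A1 was not called with the mimics of miR-655-3p (-0.16, adjusted p = 0.2) or miR-369-3p (0.14, where the sign also turned). The rise with the miR-127-5p mimic was larger against the inhibitors (1.64).

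COL4A2, the partner chain whose gene lies head to head with COL4A1, did not pass the test with any mimic against NT. It had 324 and 431 with the miR-127-5p mimic, 283 and 300.4 with the miR-369-3p mimic and 262 and 255 with the miR-655-3p mimic, against 276 and 235 in NT. The first 2 groups lay above both NT arrays and the third inside the NT range. Its log2 fold changes were 0.55, 0.19 and 0.02, with an SE of 0.27 each. As for COL4A1, the 10 inhibitor arrays lay under NT, at 125 to 230 with a median of 188. Against them COL4A2 was called higher with the mimics of miR-127-5p (1.05), miR-544a (0.87) and miR-135a (0.70). It was not called against them with those of miR-369-3p (0.69), miR-655-3p (0.51) and miR-410 (0.45). Whether the 2 genes differed was not tested. COL4A5, a chain of a second type of collagen IV network, had 279 and 347 with the miR-544a mimic and 245 and 244 with the miR-135a mimic, against 172 and 140 in NT. All 4 arrays lay above NT, with log2 fold changes of 1.01 ± 0.15 (adjusted p = 0.00013) and 0.66 ± 0.15 (adjusted p = 0.0054). Without NT replicate 2 the call with the miR-135a mimic was lost (0.51).

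Of the 6 fibrillar collagens, on the brightest probe, 1 was called higher with the miR-127-5p mimic and 1 lower with the miR-410 mimic. With the miR-655-3p mimic 1 was lower and 1 higher. Over all genes the shares lower and higher with these mimics were 9.4% and 9.71%, 4.63% and 4.14%, and 7.39% and 6.68%. No fibrillar collagen was called with the mimics of miR-544a, miR-369-3p or miR-135a. COL1A1, the main chain of collagen I, was at the edge of detection: 71.7 and 55.9 with the miR-127-5p mimic and 61.2 and 65.6 with the miR-655-3p mimic, against 23.3 and 28.1 in NT, where it was detected on 1 of 2 arrays. The log2 fold change was 1.31 ± 0.21 with each of these mimics (adjusted p = 0.00022 and 0.00031), and 1.16 against the inhibitor arrays with each. With no background correction both values were 0.42 and neither was called. COL1A2, the other collagen I chain, was called in no group on its brightest probe, while its second probe, which was tested only because both NT arrays detected it (32.3 and 38.3), was called lower with the mimics of miR-544a, miR-127-5p and miR-655-3p. It was undetected on all 6 of those arrays, which leaves bounds of at least 1.29-fold, 1.28-fold and 1.32-fold lower. COL5A1, a collagen V chain that nucleates collagen I fibrils, had 1532 and 1573 with the miR-655-3p mimic, against 2590.3 and 2574 in NT (-0.73 ± 0.11, adjusted p = 0.00019), and was not called against the inhibitors (-0.40), where its fold was under 1.4. COL27A1 had 25.6 and 32.9 with the miR-410 mimic, detected on 1 of 2 arrays, against 67.7 and 57.1 in NT (-1.10 ± 0.29, adjusted p = 0.023), a call that was lost without either NT array (-0.98 and -1.22) and without replicate 1 of the mimic (-0.92), and COL27A1 was not called against the inhibitors (-0.67).

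The largest falls with any mimic were of COL6A3 and COL7A1. COL6A3, the long chain of the beaded microfibrils of collagen VI, had 72.8 and 82.8 with the miR-135a mimic, 87.9 and 113 with the miR-655-3p mimic and 135.2 and 155 with the miR-410 mimic, against 318 and 339 in NT. These 6 arrays were below all 18 others of the series for this gene. Its log2 fold changes were -2.08 ± 0.14 (adjusted p = 6.3e-08), -1.72 ± 0.14 (adjusted p = 4.6e-07) and -1.18 ± 0.14 (adjusted p = 4.1e-05). The inhibitor arrays held 242 to 387 with a median of 323, and the 3 falls were nearly as large against them (-1.99, -1.63 and -1.09). The second probe of COL6A3 gave -2.13, -1.72 and -1.44 and was also called with the miR-127-5p mimic (-0.66).

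The 3 chains of collagen VI did not move alike across mimics. COL6A1 had 679 and 907 with the miR-544a mimic and 261 and 314 with the miR-655-3p mimic, against 476 and 460.2 in NT, which gave log2 fold changes of 0.75 ± 0.19 (adjusted p = 0.0073) and -0.71 ± 0.19 (adjusted p = 0.017), and the fall was not called against the inhibitors (-0.31). COL6A2 was called in no comparison with NT. Its miR-544a mimic arrays were far apart, at 161 and 36.6, on either side of the NT values of 104 and 108.

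COL7A1 forms the anchoring fibrils that tie the basement membrane to the stroma beneath. It had 698 and 737 with the miR-135a mimic, 1021 and 1129 with the miR-369-3p mimic and 526 and 470.3 with the miR-655-3p mimic, against 1806 and 1819.7 in NT. The inhibitor arrays lay between 1633 and 3138, with a median of 2081, so that no inhibitor array overlapped any of these mimics. Against NT the log2 fold changes were -1.34 ± 0.22 (adjusted p = 0.0003), -0.76 ± 0.22 (adjusted p = 0.0492) and -1.87 ± 0.22 (adjusted p = 1.7e-05). Against the inhibitors they were -1.58, -1.0 and -2.11, all called, as was that of the miR-410 mimic (-0.60). The call with the miR-369-3p mimic against NT sat at the threshold and was lost without any 1 of the 4 arrays (-0.68 to -0.83).

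**Figure D3:**
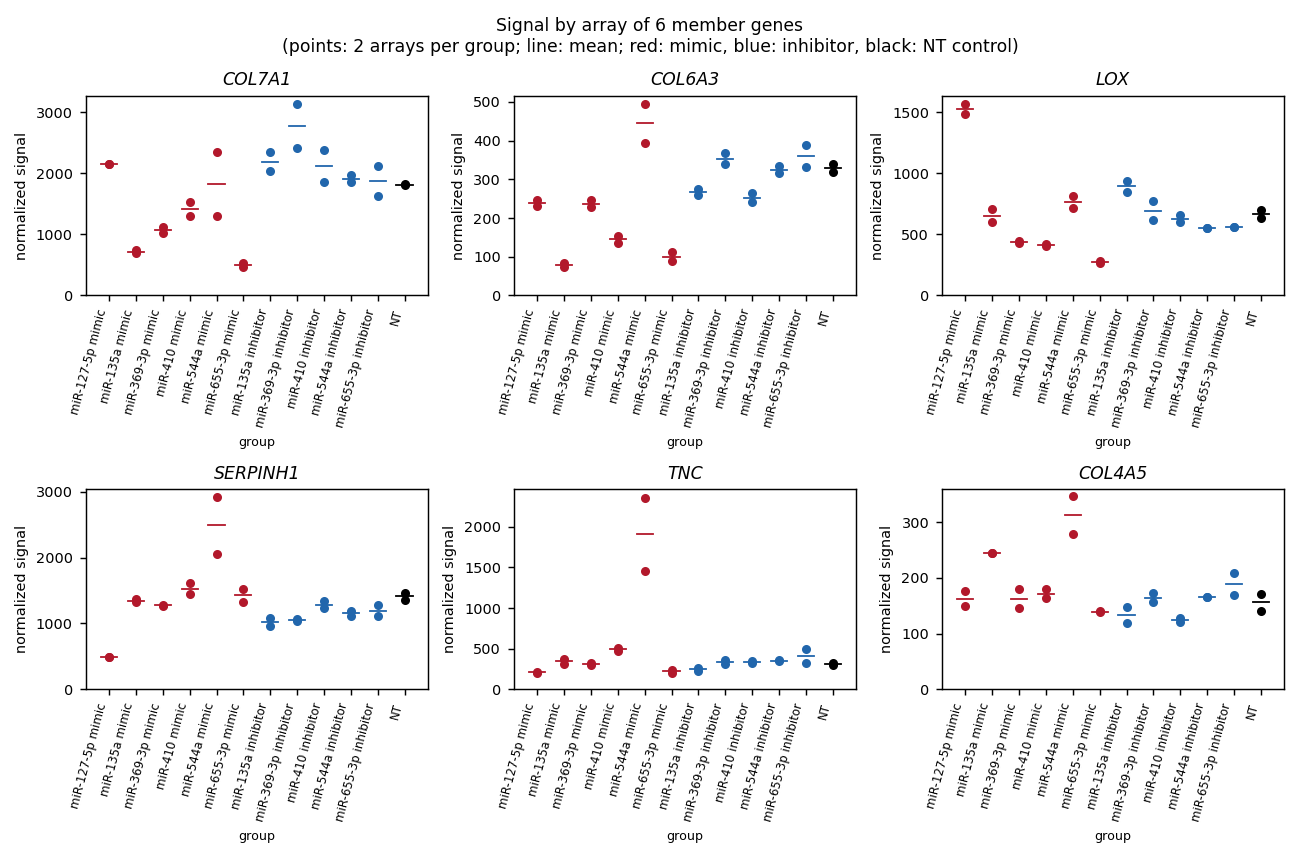
Normalized signal (linear axis) of COL7A1, COL6A3, LOX, SERPINH1, TNC and COL4A5 on each of the 2 arrays per group, with mimics in red, inhibitors in blue and NT in black, and the mean as a line. COL7A1 and COL6A3 are lowest with the mimics of miR-135a and miR-655-3p, LOX is highest with the miR-127-5p mimic (1572 and 1488) and lowest with the miR-655-3p mimic (269 and 284), and TNC and SERPINH1 are highest with the miR-544a mimic.

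The other nonfibrillar collagens moved less. COL8A1, a short-chain network collagen, had 1064 and 952 with the miR-544a mimic and 1572 and 1102 with the miR-410 mimic, against 2415 and 2308 in NT. It was called lower with both (-1.23 ± 0.15, adjusted p = 1.4e-05, and -0.84 ± 0.15, adjusted p = 0.0016). The inhibitor arrays were lower still, at 609 to 1366 with a median of 1111, and against them the 2 values were 0.04 and 0.42, neither of them called. With the mimics of miR-655-3p and miR-369-3p it was called lower than NT (-0.63 and -0.56) and called higher than the inhibitors (0.64 and 0.70). COL12A1, a fibril-associated collagen, had 305 and 374 with the miR-655-3p mimic and 91.9 and 121 with the miR-135a mimic, against 201 and 216 in NT. Both groups lay outside NT, on opposite sides (0.70 ± 0.22, adjusted p = 0.039, and -0.98 ± 0.22, adjusted p = 0.0038). The rise was no longer called without any 1 of the 4 arrays (0.55 to 0.85) but was called against the inhibitors (1.21). The fall was not called without replicate 1 of the mimic (-0.78) or against the inhibitors (-0.47). COL12A1 was also called lower with the miR-544a mimic (-0.71). COL13A1, COL16A1 and COL18A1 were called lower with the miR-655-3p mimic alone among mimics, and 7 of the 12 collagens outside the fibrillar and collagen IV types were called lower with it and 1 higher, against 7.39% and 6.68% of all genes on their brightest probes. Against the inhibitors 3 of the 12 were lower and 2 higher (7.46% and 7.14% of all genes), and COL13A1 (-0.39) and COL18A1 (-0.30) were not called.

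Among the laminins, LAMC1, the gamma1 chain that most laminins carry, was lower than NT in almost every transfected group. It had 2465 and 2705 with the miR-135a mimic, 2083 and 2103 with the miR-369-3p mimic, 2295 and 2429 with the miR-410 mimic, 1950.0 and 2216 with the miR-544a mimic and 2144 and 2259 with the miR-655-3p mimic, against 3839 and 3792 in NT. Only the miR-127-5p mimic overlapped NT, at 3641 and 4070.5. The inhibitor arrays lay at 1942 to 2505, with a median of 2337, close to the 5 low mimics. The log2 fold changes of the 5 mimics were -0.56 to -0.88, all called, and that of the mean of the 5 inhibitor groups was -0.75 ± 0.08 (adjusted p = 1.3e-05). Against the inhibitors, LAMC1 was called with the miR-127-5p mimic (0.76) and with no other mimic (-0.13 to 0.18).

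LAMB2 and LAMA5, chains of basement membrane laminins, were called only higher with mimics against NT. LAMB2 had 753 and 1068 with the miR-127-5p mimic and 642 and 736 with the miR-544a mimic, against 344 and 376 in NT (1.32 ± 0.24, adjusted p = 0.0009, and 0.94 ± 0.24, adjusted p = 0.0089). The second of these calls was lost without NT replicate 1 (0.87) or without replicate 2 of the mimic (0.84). LAMA5 had 4593 and 4840.1 with the miR-655-3p mimic and 4782 and 4454 with the miR-127-5p mimic, against 2991 and 3422 in NT (0.56 ± 0.13, adjusted p = 0.0071, and 0.53 ± 0.13, adjusted p = 0.0076). Without NT replicate 1 the rise with the miR-655-3p mimic was not called (0.46), nor without replicate 2 of the mimic (0.52). LAMB3, the beta chain of the epithelial laminin-332, had 4077 and 4359 with the miR-127-5p mimic, against 2923 and 2954 in NT (0.52 ± 0.16, adjusted p = 0.029), and was not called with the other mimics or against the inhibitors (0.39). LAMA1 was not detected in NT. With the miR-135a mimic it had 41.0 and 41.2, at least 1.54-fold higher than NT (adjusted p = 0.0087), a bound set against the level at the detection threshold, and without NT replicate 2 the call was lost. It was also called higher with the inhibitors of miR-135a, miR-369-3p and miR-410, by at least 2.05, 1.63 and 1.56 times. The LAMA1 probe was tested only because the miR-135a mimic and these inhibitors, and no other groups, detected it on both arrays. The filter thus favoured these calls, and the p-value does not allow for it.

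**Figure D4:**
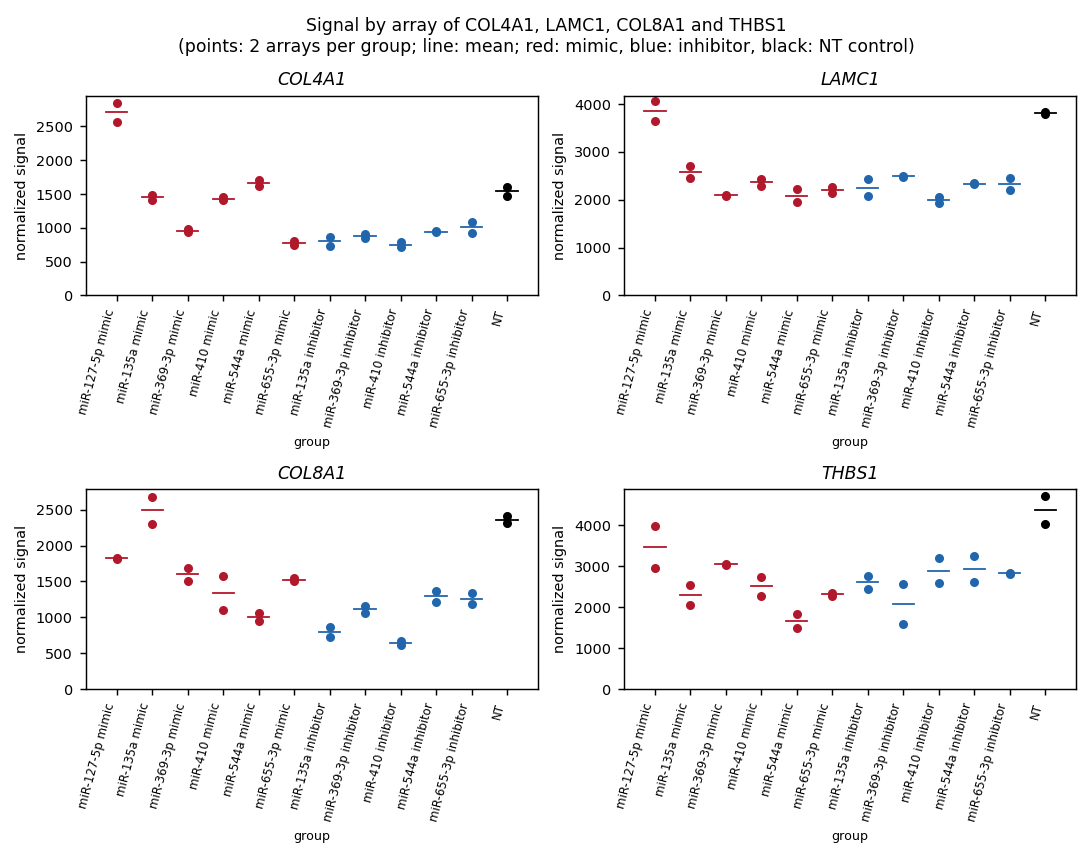
Normalized signal (linear axis) of COL4A1, LAMC1, COL8A1 and THBS1 on each array, mimics in red, inhibitors in blue and NT in black, with the mean as a line. On the brightest probe, shown here, the 10 inhibitor arrays lie under both NT arrays for all 4 genes. For LAMC1 they are at 1942 to 2505, against 3839 and 3792 in NT.

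The lysyl oxidases cross-link collagen and elastin outside the cell. LOX, the founding member, went in both directions, with 1572 and 1488 with the miR-127-5p mimic, 450.3 and 427 with the miR-369-3p mimic, 419 and 408 with the miR-410 mimic and 269 and 284 with the miR-655-3p mimic, against 699 and 636 in NT. Each of the 4 groups lay outside NT, with log2 fold changes of 1.20 ± 0.12 (adjusted p = 2.6e-06), -0.60 ± 0.12 (adjusted p = 0.0057), -0.69 ± 0.12 (adjusted p = 0.0013) and -1.27 ± 0.12 (adjusted p = 1.8e-06). Against the inhibitor arrays, at 552 to 942 with a median of 611, the values were 1.23, -0.58, -0.66 and -1.24, all called. No inhibitor group was called for LOX against NT.

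LOXL1, LOXL3 and LOXL4 each followed another pattern. LOXL4 had 448 and 513 with the miR-544a mimic, against 1112 and 1171 in NT (-1.25 ± 0.12, adjusted p = 8.5e-07), and -0.74 against the inhibitors. It was also called lower than NT with the mimics of miR-655-3p, miR-369-3p and miR-135a (-0.75, -0.57 and -0.52), none of which was called against the inhibitors. LOXL1 had 83.4 and 103 with the miR-544a mimic, against 39.7 and 52.8 in NT (1.02 ± 0.23, adjusted p = 0.004), a call lost without NT replicate 1 (0.81). With the miR-410 mimic it was undetected (25.7 and 26.0), at least 1.65-fold lower than NT (adjusted p = 0.037), and this call was lost without any 1 of the 4 arrays. LOXL3 had 48.8 and 50.8 with the miR-655-3p mimic, against 34.2 and 29.2 in NT (0.66 ± 0.17, adjusted p = 0.014), and the call was lost without NT replicate 2 (0.54) or either array of the mimic (0.68 and 0.63).

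SERPINH1 encodes HSP47, the chaperone that binds folded procollagen in the endoplasmic reticulum. It had 487 and 492 with the miR-127-5p mimic and 2060.4 and 2915 with the miR-544a mimic, against 1357 and 1462 in NT. The 10 inhibitor arrays lay between 954 and 1342, so that the miR-127-5p mimic arrays were the lowest of the series and the miR-544a mimic arrays the highest. The log2 fold changes against NT were -1.53 ± 0.14 (adjusted p = 1e-06) and 0.80 ± 0.14 (adjusted p = 0.00043), and against the inhibitors -1.21 and 1.11. The remaining 4 mimics were within 0.14 of NT. SERPINH1 was the only 1 of the 42 member genes called lower with the miR-127-5p mimic on its brightest probe, beside 7 called higher. Over all genes the shares were 9.4% lower and 9.71% higher.

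The hydroxylases modify proline (P4HA1, P4HA2) and lysine (PLOD1 to PLOD3) residues of collagen chains, which stabilizes the helix and prepares the cross-links. PLOD2, which modifies the telopeptides, had 1341 and 1354 with the miR-655-3p mimic, 1656 and 1626 with the miR-369-3p mimic and 3843 and 3522 with the miR-544a mimic, against 2523 and 2598 in NT. No array of these mimics fell within the NT range, and log2 fold changes were -0.93 ± 0.09 (adjusted p = 1.6e-06), -0.64 ± 0.09 (adjusted p = 0.00024) and 0.52 ± 0.09 (adjusted p = 0.00026). The 10 inhibitor arrays also lay under NT, at 1748 to 2311. Against them the values were -0.60, -0.31 and 0.85, of which that of the miR-369-3p mimic was not called. These PLOD2 values are of its brightest probe. With the miR-544a mimic the second probe had 320 and 185, on either side of NT (279 and 235). The third had 97.5 and 106 with that mimic, above NT (81.4 and 85.5). P4HA1 had 377 and 396 with the miR-369-3p mimic, against 606 and 604 in NT (-0.65 ± 0.14, adjusted p = 0.013), which was not called without any 1 of the 4 arrays (-0.61 to -0.68) or against the inhibitors (-0.41). P4HA1 and PLOD1 were also called lower with the miR-655-3p mimic (-0.56 and -0.77), so that 3 of the 6 hydroxylase and chaperone genes were called lower with it and 0 higher, against 7.39% and 6.68% of all genes. Against the inhibitors 2 of the 6 were lower and 0 higher (7.46% and 7.14% of all genes). On its brightest probe P4HA2 was called with the miR-127-5p mimic alone (0.52), and PLOD3 with none.

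The glycoproteins TNC and THBS1 moved apart with the miR-544a mimic. TNC, tenascin-C, a large protein of wound and tumor stroma, had 1461 and 2353 with it, against 294 and 320 in NT, and no other array of the series exceeded 514. The log2 fold change was 2.60 ± 0.20 (adjusted p = 1.1e-07), the highest of any member gene with any mimic, and 1.70 on its second probe. TNC had 468 and 514 with the miR-410 mimic (0.68 ± 0.20, adjusted p = 0.041), which lay above NT but was not called without any 1 of the 4 arrays (0.61 to 0.74). THBS1, thrombospondin-1, an activator of latent TGF-beta, had 1824 and 1500.4 with the miR-544a mimic and 2051 and 2552 with the miR-135a mimic, against 4710.1 and 4038 in NT, that is, log2 fold changes of -1.40 ± 0.21 (adjusted p = 9.4e-05) and -0.93 ± 0.21 (adjusted p = 0.0038), and the second call was lost without replicate 1 of the mimic (-0.77). THBS1 was also called lower with the mimics of miR-655-3p (-0.91) and miR-410 (-0.81). The inhibitor arrays were also under NT, at 1601 to 3245 with a median of 2686, and against them only the fall with the miR-544a mimic was called (-0.67).

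The 5 inhibitor groups gave a second set of transfected arrays. Their mean, compared with NT, was called lower on the brightest probe for COL8A1 (-1.27), COL4A1 (-0.83), LAMC1 (-0.75), THBS1 (-0.73) and LOXL4 (-0.52). It was called higher for LAMA1 (undetected in NT, at least 1.37-fold), whose probe was tested only through groups that detected it. Over all tested member probes, dimmer ones included, 8 probes of 7 genes were lower and 1 was higher, against 3.6% of all probes in each direction. LAMC1, COL4A1 and COL8A1 were called lower than NT on the brightest probe with each of the 5 inhibitors. By inhibitor, 14 member probes were lower and 1 higher with that of miR-135a, against 5.97% and 5.67% of all probes. Corresponding counts were 6 and 1 for miR-369-3p (5.87% and 6.42%), 8 and 1 for miR-410 (5.16% and 4.15%), 7 and 0 for miR-544a (1.85% and 1.92%) and 4 and 0 for miR-655-3p (1.25% and 1.97%). On the brightest probes of LAMC1, COL4A1 and COL8A1 the NT arrays were above all 5 inhibitor groups. Whether this lies in the NT mimic, in those 2 arrays or in the inhibitors cannot be told apart with 1 control group. The third COL8A1 probe did not share this pattern, with 185 and 145 in NT and 114 to 196 on the inhibitor arrays. COL4A1 was not called against NT with the mimics of miR-135a, miR-410 and miR-544a (1405 to 1706, against 1477 and 1609). The brightest COL8A1 probe was not called with those of miR-135a and miR-127-5p, while LAMC1 was called lower with every mimic but that of miR-127-5p. Why the mimics differed here was not tested.

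Set against the 10 inhibitor arrays in place of NT, the mimics moved other numbers of member probes. The miR-127-5p mimic lowered 2 and raised 17, against 9.08% and 9% of all probes, and the miR-544a mimic lowered 4 and raised 21, against 10.2% and 10.3%. The miR-655-3p mimic lowered 9 and raised 8 (5.91% and 6.01%), the miR-135a mimic lowered 3 and raised 11 (6.7% and 6.99%), the miR-410 mimic lowered 5 and raised 2 (3.14% and 2.43%) and the miR-369-3p mimic lowered 2 and raised 5 (1.75% and 1.68%). The genes called in the same direction against both references with the miR-655-3p mimic were COL6A3, COL7A1, COL16A1, LOX, PLOD1 and PLOD2 (lower) and COL1A1, COL12A1, LAMA5 and LOXL3 (higher). With the miR-127-5p mimic they were SERPINH1 (lower) and COL1A1, COL4A1, LAMA5, LAMB2, LOX and P4HA2 (higher).

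The miR-369-3p mimic and the miR-655-3p mimic, which share the 13-base run shown above, were compared directly, without NT. The miR-369-3p mimic had higher COL6A3 (247 and 228, against 87.9 and 113 with the miR-655-3p mimic), COL7A1, COL5A1 and LOX, and lower COL1A1. The log2 differences were 1.25 ± 0.14 (adjusted p = 3e-05) for COL6A3, 1.11 ± 0.22 (adjusted p = 0.0045) for COL7A1, 0.69 ± 0.11 (adjusted p = 0.00084) for COL5A1, 0.67 ± 0.12 (adjusted p = 0.0022) for LOX and -0.93 ± 0.21 (adjusted p = 0.011) for COL1A1. In all, 1 member probe was lower and 5 were higher with the miR-369-3p mimic, against 1.9% and 2.69% of all probes, and 37 of the 42 genes were not called between the 2 mimics.

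Different probes of a gene did not always move together. Of the 42 genes, 13 had 2 or 3 tested probes. The 2 brighter COL8A1 probes fell with the miR-655-3p mimic (-0.63 and -0.71), while the third, at a mean signal of 165 in NT, rose (1.26, adjusted p = 0.00029), and with the miR-135a mimic the third probe rose (1.13) while the others were at 0.07 and 0.05. With the mimics of miR-135a and miR-410 the brightest PLOD2 probe was not called (-0.03 and -0.39), whereas the 2 dimmer probes fell (-1.20 and -0.77 with miR-135a, -1.25 and -0.96 with miR-410). LAMB1, a beta chain of basement membrane laminins, was not called on its brightest probe. Its second probe was lower with the mimics of miR-655-3p (-0.85) and miR-369-3p (-0.96). The NT arrays of this second probe were far apart, at 74.0 and 131, and the inhibitor arrays lay at 45.5 to 87.5. The transcript that each probe reads is not given in the sources used here.

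**Figure D5:**
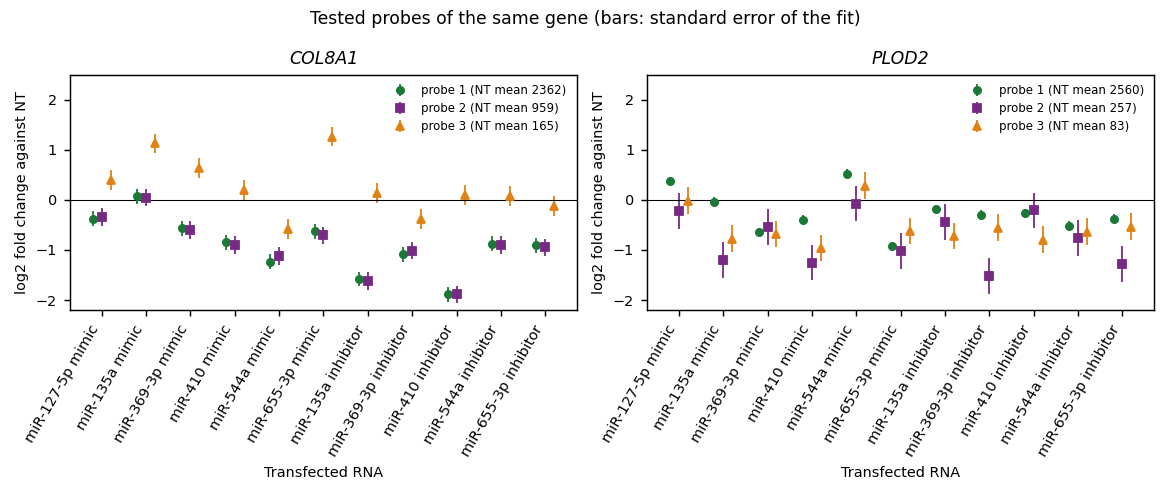
Log2 fold change against NT of the 3 tested probes of COL8A1 (left) and PLOD2 (right) for each mimic and inhibitor, with the SE of the fit as bars and the mean signal in NT in the legend. The dimmest COL8A1 probe rises with the mimics of miR-135a (1.13) and miR-655-3p (1.26), where the others are at 0.07 and 0.05, and at -0.63 and -0.71.

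The genes around collagen in the pathway were followed through 4 lists, with NT as the reference unless stated otherwise. Over all genes, on their brightest probes, the shares called lower and higher were 10.7% and 14% with the miR-544a mimic, 9.4% and 9.71% with the miR-127-5p mimic and 9.28% and 10% with the miR-135a mimic. For the miR-655-3p mimic they were 7.39% and 6.68%, for the miR-410 mimic 4.63% and 4.14% and for the miR-369-3p mimic 2.95% and 2.86%. With lists of 12 to 21 genes many of the counts lie near these shares, and nothing is read from them about a list as a whole. Of 17 measured collagen and laminin receptors, the miR-655-3p mimic lowered 2 and raised 2, miR-544a lowered 3 and raised 2, miR-410 lowered 3, miR-369-3p raised 1, miR-135a lowered 2 and raised 3 and miR-127-5p raised 2. ITGB4, the integrin chain that binds laminin-332 in hemidesmosomes, was higher with the mimics of miR-127-5p (1.42), miR-655-3p (1.22), miR-135a (0.89) and miR-369-3p (0.68) and lower with miR-544a (-0.69). ITGA2, a collagen receptor chain, was lower with miR-135a (-1.30) and miR-410 (-0.70) and higher with miR-544a (0.74), and ITGA10, also a collagen receptor chain, was highest with miR-544a (1.84).

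Of 12 measured genes of collagen folding and modification outside the members, 2 were lower and 2 higher than NT with the miR-544a mimic. Against NT the counts were 2 and 1 with miR-410, 1 and 2 with miR-127-5p and none with the other 3. Against the inhibitors 3, 2, 2, 1, 1 and 1 were higher with the mimics of miR-127-5p, miR-544a, miR-655-3p, miR-410, miR-369-3p and miR-135a. The shares of all genes higher there were 11%, 12.6%, 7.14%, 3.02%, 2.13% and 8.62%. With miR-410, 1 was also lower than the inhibitors (3.7% of all genes). HSPA5, the general chaperone BiP, was higher with miR-544a (1.02) and miR-127-5p (0.56) and lower with miR-410 (-0.72). P3H4, of the lysyl hydroxylation complex, was higher with miR-544a (0.80) and lower with miR-410 (-0.59), and the collagen galactosyltransferase COLGALT1 was lower with miR-544a (-0.63) and miR-127-5p (-0.61). Of 15 measured genes of procollagen export and propeptide cleavage, 3 were lower and 2 higher with miR-544a, 1 was lower with each of miR-655-3p, miR-410 and miR-135a, and none was called with miR-369-3p or miR-127-5p. SEC23A, a COPII coat protein that large procollagen cargo needs, was lower with miR-655-3p (-1.70), miR-544a (-1.53) and miR-410 (-1.12). SAR1A, the GTPase that starts COPII coats, was lower (-0.86) and PCOLCE, an enhancer of propeptide cleavage, was higher (1.07) with miR-544a.

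Of 21 measured matrix glycoproteins and proteoglycans, the miR-544a mimic lowered 6 and raised 3, and miR-135a lowered 5 and raised 5. The mimics of miR-655-3p and miR-410 each lowered 4 and raised 1, miR-369-3p lowered 3 and raised 1, and miR-127-5p lowered 3 and raised 5. In the mean of the 5 inhibitor groups against NT, 6 of the 21 were lower and 2 higher (4.09% and 4.49% of all genes). FBLN1, a fibulin of the basement membrane, was higher with miR-135a (1.46), miR-127-5p (1.27) and miR-410 (0.74) and lower with miR-655-3p (-1.05) and miR-544a (-0.85). The matrix glycoprotein FSTL1 was lower with miR-544a (-1.55), miR-655-3p (-1.53), miR-127-5p (-1.24) and miR-135a (-0.92). TGM2, a transglutaminase that cross-links matrix proteins, was lower with miR-135a (-1.59), miR-127-5p (-0.86) and miR-410 (-0.70).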

How the data were processed

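RNA of MDA-MB-231 cells was profiled on 24 Illumina HT12v4 arrays. Groups were taken from the sample titles; the treatment text of the inhibitor samples names a mimic, their titles an inhibitor. The authors deposited the bead signal intensity of each probe, before background subtraction and normalization, with its detection p-value against the negative controls of the array. They also deposited log2 values made in BeadStudio by background subtraction and quantile normalization, used here as an alternative. Intensities were background-corrected from the detection p-values, given an offset of 16, quantile normalized and log2 transformed (neqc, limma 3.58.1, R 4.3.3). Signals in the text are 2 to the power of these values. One limma model of 12 group means (12 residual and 3.96 prior degrees of freedom) was fitted to the 22803 probes detected (p under 0.05) on both arrays of some group, with Benjamini-Hochberg adjustment over all of them. Calls required a fold of 1.4 or more together with an adjusted p under 0.05. Of all probes, 30109 had 1 gene symbol in the platform annotation, 8 several and 17192 none. A gene was represented by its brightest tested probe. Precision is limited by the 2 arrays per group.

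Named genes were, per mimic, up to 4 with the lowest and 4 with the highest log2 fold change among called members, and FN1, TNC, SPARC, THBS1, LOX, SERPINH1, COL4A1, COL4A2, LAMB3 and LAMC1 throughout; COL1A2, COL5A1, COL6A1, COL6A2, LOXL3, PLOD2 and other genes named beside them were added after their values were seen. The members and lists were chosen with earlier results of these data known. The limma procedure was tested on simulated data for the miR-655-3p mimic over 22803 probes: of 50 probes each changed by -2, -1, 1 and 2 on the log2 scale, 49, 41, 41 and 49 were called, with 10 false calls. The changed probes were drawn only from brighter probes in NT, with noise that was independent between arrays. Recovery at signals near background, as for COL1A1 or LAMA1, was therefore not simulated. Alternatives were no background correction, plain subtraction, the authors' table, median scaling, no filter, detection on all 24 arrays, a replicate block, SAM, the inhibitor arrays as reference and leaving out each array.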

Additional observations from a re-analysis of the deposited data

Results flagged for a closer look

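For 7 genes the fold changes against NT had opposite signs with different mimics, and the direct contrast between the mimics, in which the NT arrays cancel, was called. The difference on the log2 scale was 2.469 for LOX between the mimics of miR-127-5p and miR-655-3p (adjusted p = 6.09e-10) and 1.801 for COL4A1 between the same mimics (adjusted p = 7.97e-09). It was 2.324 for SERPINH1 between the mimics of miR-544a and miR-127-5p (adjusted p = 3.31e-09). Between the mimics of miR-544a and miR-655-3p it was 1.456 for COL6A1 (adjusted p = 2.02e-05) and 1.449 for PLOD2 (adjusted p = 5.64e-09). It was 1.839 for LOXL1 between the mimics of miR-544a and miR-410 (adjusted p = 2.41e-05), the second of which left LOXL1 undetected, so that the difference is bounded as at least 3.34-fold, and 1.678 for COL12A1 between the mimics of miR-655-3p and miR-135a (adjusted p = 3.09e-05). For each gene the mimics compared were those with the highest and the lowest called value, which favours a large difference.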

How the results depend on the processing

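Of 162 counts of called member probes under the alternatives, 125 stayed within 1.5 times the value reported and 37 did not. With SAM on 2 against 2 arrays the miR-127-5p mimic lowered 6, the miR-369-3p mimic lowered 14 and raised 1, the miR-410 mimic raised 0, the miR-544a mimic lowered 4 and raised 2, the miR-655-3p mimic raised 3, and the inhibitors of miR-369-3p, miR-410 and miR-544a gave 13, 14 and 13 calls. No other alternative changed the number lowered by the miR-655-3p mimic beyond 1.5 times except the inhibitor arrays as reference (9). With those arrays as reference the mimics of miR-655-3p, miR-544a, miR-410, miR-369-3p, miR-135a and miR-127-5p raised 8, 21, 2, 5, 11 and 17, and those of miR-544a, miR-410, miR-369-3p and miR-135a lowered 4, 5, 2 and 3. The signs of COL4A1 with miR-369-3p (0.14) and of COL8A1 with miR-410 (0.42) and miR-544a (0.036) turned. In the authors' table the miR-410 mimic raised 0, the miR-655-3p mimic 3 and the inhibitors' mean 0. Over probes detected on all 24 arrays the miR-369-3p mimic raised 1, the miR-655-3p mimic 3 and the inhibitors' mean 0, and with plain subtraction the miR-410 mimic raised 0, the miR-655-3p mimic 3 and the inhibitors' mean 0. With no background correction the miR-127-5p mimic lowered 1, the miR-544a mimic lowered 5, the mimics of miR-135a and miR-655-3p raised 1 and 3 and the inhibitors' mean 0. With median scaling or no filter the miR-410 mimic raised 0.

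Without 1 array, the mimics of miR-655-3p, miR-544a, miR-410, miR-369-3p, miR-135a and miR-127-5p lowered 15 to 20, 6 to 10, 6 to 8, 3 to 5, 5 to 8 and 1 to 2 and raised 2 to 3, 7 to 11, 0 to 1, 0 to 1, 3 to 4 and 5 to 8. The inhibitors' mean lowered 5 to 10 and raised 0 to 1, and the inhibitors of miR-655-3p, miR-544a, miR-410, miR-369-3p and miR-135a gave 3 to 5, 3 to 6, 6 to 8, 6 to 8 and 9 to 14 calls. Of 144 named log2 fold changes with 1 array left out, 109 kept their call and 35 did not, with no change of sign; a lone array was taken to vary like the other groups. The cause of these changes was not tested.

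The replicate number is shared between groups as a number only: the deviations of same-numbered arrays correlated at -0.48 to 0.52 over 66 pairs of groups. With the replicate number as a block, the 36 named calls were all kept. In a fit of the probes detected on all 24 arrays, the 29 named calls on such probes were kept. Of the 36, 8 were lost with no background correction, 5 in the authors' table, 4 each with median scaling, plain subtraction and no filter, and 12 (3 with a turned sign) against the inhibitor arrays. The calls lost under more than 1 of the first 5 of these settings were those of TNC, COL27A1 and LOXL1 with miR-410, COL12A1 and LOXL3 with miR-655-3p, COL7A1 with miR-369-3p and LAMA1 with miR-135a. With the replicate block the miR-655-3p mimic lowered 20 member probes. SAM was not run for the inhibitors' mean, and a slide block could not be run because the slides are not given in the sources used here. Signals near background limit the values of COL1A1, COL27A1, LOXL1, LOXL3, LAMA1, FN1 and the second COL1A2 probe.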
